A study of Mus musculus with 2744 samples.

Results

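Mouse embryonic stem cells were followed as they differentiated in vitro into motor neurons, and the first sampled day (Day 2) is compared here with the last (Day 6), taking from Day 6 only the plates that carry no eGFP tag in their titles and are therefore called unselected. Each library is 1 cell sorted into a well of a plate. A cell was kept when at least 500 genes, spike-ins excluded, had a read, which left 861 of 928 wells on 12 of the 35 plates of the series; the whole series has 2448 kept cells of 2744. Each day has 4 main plates of 96 wells and 2 pilot plates of 40 wells. The main plates kept 87 to 92 cells on Day 2 and 87 to 90 on Day 6, and the pilot plates 37 and 38 against 39 and 32. The main and pilot experiments are the biological replicates that the study names. Both days share the same differentiation into motor neurons, and no genotype, strain or stem cell line is named in the labels. The cells of both days grew as embryoid bodies, aggregates that were broken up with papain before the sort. Either day can hold a mixture of cell types, and purity was not tested. The sources used here do not say whether plates of 1 day and experiment came from 1 culture, so p-values over plates measure only the spread between plates.

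Embryonic stem cells hold their state through a circuit of transcription factors led by Oct4 (the product of Pou5f1) and Sox2. In the usual protocol for motor neurons, retinoic acid gives the cells a hindbrain and spinal cord position, which is written in the Hox genes, and a Hedgehog agonist gives them a ventral position. Progenitors marked by Olig2 then leave the cell cycle and switch on Mnx1, Isl1 and Lhx3, the transcription factors of motor neurons, and afterwards the cytoskeleton and transmitter genes of a neuron. On which days either factor was added here is not stated in the labels.

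The plates held between 8688789 and 36921608 reads on genes in their kept cells. The median number of genes with a read per cell was 3103 to 5530.5 on the Day 2 main plates and 2080 to 2671.5 on the Day 6 main plates, while in the pilot it was lower on Day 2 (1719 to 1869.5) than on Day 6 (2908.5 to 3805). Spike-in reads made up 2.51% to 5.45% of reads on Day 2 and 13.9% to 16.9% on Day 6, without overlap, so the ratio of spike-in to cell RNA moved with the day in both experiments. Its part in the results was not tested; levels below are CPM (reads scaled to a common total of gene reads, with TMM factors) and do not give RNA per cell. In a plate sum, fewer cells with a gene and less RNA of it per cell cannot be told apart, and the share of cells with a read is given beside the levels.

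Of 13840 genes that passed the filter on low counts, 3218 changed (23.3%; edgeR quasi-likelihood test on plate sums with the experiment as block, Benjamini-Hochberg adjusted p under 0.05): 1654 rose (12%) and 1564 fell (11.3%). Among the 3218, the summed reads moved the same way in both experiments for 2991. The fit that called them pools the plates of both experiments, so part of this agreement comes from the selection. With the experiment rather than the plate as the replicate, which leaves 5 residual degrees of freedom, 94 of 16080 genes rose (0.585%) and 40 fell (0.249%), 0.833% in all, and each of them was also among the 3218. Rises made up 51.4% of the calls over plates, 70.1% of those over experiments, 61.8% with cells thinned before summing and 24 of the 30 calls from the pilot plates alone. Falls outnumbered rises without Day 6 main plate 3 (42.4% rises), with cells that have a read counted in place of reads (44.2%), without the filter on low counts (46.1%) and without the experiment as a block (47.1%); leaving out any other plate gave 48.6% to 52.9%. Every Day 6 plate lay above every Day 2 plate within both experiments for 1519 genes (11%), and every Day 6 plate lay below for 1071 (7.74%). Of 3865 genes called on the main plates alone, 3470 were tested on the pilot plates, and 3097 of these (89.25%) had the same direction there, against 7732 of 10942 (70.66%) of all genes tested in both. In the lists that follow, counts over plates are read against 12% and 11.3%, counts over experiments against 0.585% and 0.249%, and median log2 ratios of summed reads against 0.15 (main) and 0.36 (pilot) over all tested genes. A list counts only the members that passed the filter, and a gene silent on 1 day passes it only through the other day.

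Dppa5a, Hoxb5 and Celf3 frame the contrast, and their plates did not overlap between days. Dppa5a (chr9:78367052-78368177, minus strand, mm10) encodes a small KH-domain protein of pluripotent cells. Its main plates read 3118, 3856, 2678 and 2697 CPM on Day 2 and 5, 0, 12.5 and 10.8 CPM on Day 6, and its pilot plates read 1880 and 2160 CPM against 27.9 and 0.607 CPM. The lowest Day 2 plate thus stood far above the highest Day 6 plate. The fitted level of Dppa5a fell by 8.23 ± 1.07 on the log2 scale (SE; edgeR adjusted p = 0.000128 over plates, 0.0032 over experiments). Hoxb5 (chr11:96303336-96306121, plus strand) is a homeobox gene of the hindbrain to cervical and brachial cord. It read 3.5, 0.059, 1.3 and 2.14 CPM on the Day 2 main plates and 511.9, 574, 413.1 and 365.6 CPM on the Day 6 main plates, with 3.25 and 0.223 CPM against a Day 6 mean of 416.97 ± 114.5 CPM in the pilot (SD, n = 2). Hoxb5 rose by 8.0 ± 0.77 (log2, SE; edgeR adjusted p = 8.56e-06 and 0.000201). Celf3 (chr3:94478295-94492198, plus strand), which encodes an RNA-binding splicing factor of neurons, had no read on any of the 6 Day 2 plates. On Day 6 Celf3 stood at 69.8, 93.6, 118.6 and 100.8 CPM on the main and 131.03 and 28.9 CPM on the pilot plates, at least 2580-fold and 1460-fold above what 3 reads in the Day 2 sum of each experiment would give (edgeR adjusted p = 5.86e-06 and 0.046).

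**Figure D1:**
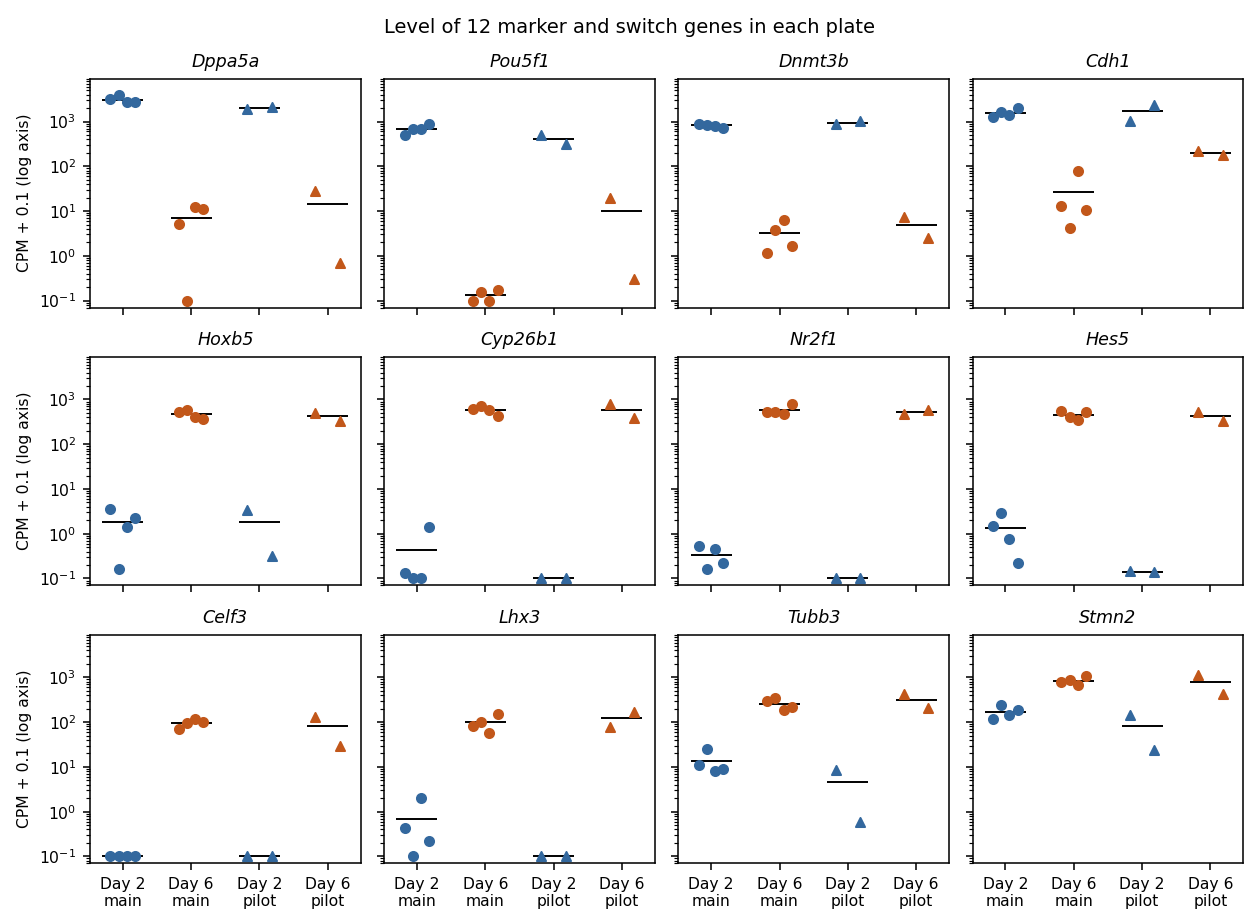
Level of 12 genes on each plate (CPM plus 0.1, logarithmic axis; dots, main plates; triangles, pilot plates; line, mean of the plates of a day). The plates of the days stand apart for Dppa5a, Pou5f1, Dnmt3b, Cdh1, Hoxb5, Cyp26b1, Nr2f1, Celf3, Lhx3, Tubb3 and Stmn2, as do the main plates for Hes5. Stmn2 had 23.9 to 239.6 CPM on Day 2 and 429.3 to 1135 CPM on Day 6.

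The stem cell program fell. Of 25 pluripotency factors tested, 18 fell over plates and none rose, and 4 fell over experiments; the median of their log2 ratios was -4.98 (main) and -4.55 (pilot). Of 28 stem cell effectors, 23 fell over plates and 7 over experiments, again with none rising (medians -4.68 and -4.88). Pou5f1 stood at 505.9, 698, 688 and 862 CPM on the Day 2 main plates and at 0, 0.0592, 0 and 0.0681 CPM on the Day 6 main plates. In the pilot, Pou5f1 had 508.1 and 321.1 CPM against 19.7 and 0.202 CPM. It fell over plates (edgeR adjusted p = 0.000655) and did not pass over experiments (adjusted p = 0.0906), and its change differed between the experiments (adjusted p = 0.0144 for the interaction), the pilot keeping more on Day 6. Zfp42 (Rex1), a zinc-finger marker of naive pluripotency, had 60.1 to 116.4 CPM on Day 2 main plates and 0 to 6.84 CPM on Day 6 main plates (edgeR adjusted p = 0.00347 and 0.0222). Utf1, a chromatin-bound factor of stem cells, went from 110.5 to 126.8 CPM on the Day 2 main plates to 0 to 0.48 CPM on Day 6.

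The factors differed in how much they fell. Sox2, which stem cells and neural progenitors both express, fell by 1.33 ± 0.27 (log2, SE; edgeR adjusted p = 0.00358 over plates, 0.407 over experiments). Its main plates read 182.7, 200.5, 116.95 and 130.2 CPM on Day 2 and 67, 36.2, 68.5 and 82.4 CPM on Day 6. Sall4, a zinc-finger partner of Oct4, kept 14.1 to 29.2 CPM on the Day 6 main plates after 200.9 to 271.7 CPM on Day 2 and fell by 3.52 ± 0.26 (adjusted p = 8.99e-07 and 0.00415). Nanog was already low on Day 2, at 3.15 to 8.56 CPM on the main plates and 1.71 to 2.53 CPM in the pilot, and its values of 1.09 to 3.38 CPM on the Day 6 main plates gave no call (edgeR adjusted p = 0.372). Among genes of other roles, Mybl2, a cell cycle transcription factor of the list, fell by 3.91 ± 0.37 (edgeR adjusted p = 7.18e-06 and 0.0402), and Etv5, a target of fibroblast growth factor signalling, had 53.9 ± 18.3 CPM (SD, n = 4 plates) on Day 2 main plates and 2 reads in all on those of Day 6.

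Signals of the early embryo went with it. Tdgf1, the Nodal co-receptor Cripto, read 386.4, 498.8, 445.7 and 311.2 CPM on the Day 2 main plates and 0.0735, 0, 0 and 0.136 CPM on Day 6 (edgeR adjusted p = 6.42e-09 over plates and 0.0262 over experiments). Nodal itself, with 119.9 ± 17.6 CPM (SD, n = 4 plates) on Day 2, had no read on the Day 6 main plates, at least 2325-fold lower (edgeR adjusted p = 0.000129 and 0.0612). Lefty1, the inhibitor that Nodal induces, had 62.9 ± 9.28 CPM on the Day 2 main plates and 1 read in all on those of Day 6 (edgeR adjusted p = 4.87e-07 and 0.0222). Fgf4, the growth factor by which stem cells leave naive pluripotency, had 77.7 ± 9.51 CPM on the Day 2 main plates, and no read on the Day 6 pilot plates against 97.8 CPM there on Day 2. The pathway list as a whole was split, with 6 of 17 members falling and 4 rising over plates and 2 falling over experiments (medians -0.27 and 1.09). The risers include Id1 and Id2, targets of BMP signalling that hold back neuronal differentiation: Id1 went from 0.953 to 27 CPM on the Day 2 main plates to 89.3 to 196.1 CPM (edgeR adjusted p = 0.0135 over plates, 0.0952 over experiments), and Id2 from 14.8 to 35.2 CPM to 63.5 to 150.97 CPM (0.00257 and 0.141).

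Epithelial and chromatin genes of stem cells moved with them. Cdh1, the E-cadherin that binds stem cells into a sheet, read 1264, 1606, 1437 and 2041 CPM on the Day 2 main plates and 12.9, 4.03, 77.9 and 10.6 CPM on those of Day 6; its pilot plates read 1016 and 2359 CPM against 220.1 and 182.6 CPM. It fell by 5.03 ± 0.77 (log2, SE; edgeR adjusted p = 0.000461 over plates, 0.0612 over experiments). Of 20 epithelial genes tested 8 fell and none rose over plates, and none passed over experiments (medians -2.68 and -2.04); Epcam, the epithelial adhesion molecule, fell to 1.8 CPM from 127.2 CPM in main means (edgeR adjusted p = 0.00532), and Esrp1, a splicing factor of epithelia, to 0.304 CPM from 51.7 CPM (0.000294). Of 11 tested epiblast and germ layer genes 6 fell over plates and 1 over experiments (medians -4.15 and -5.18), namely Dnmt3b, the de novo DNA methyltransferase, at 713 to 898 CPM on Day 2 main plates and 1.03 to 6.37 CPM on Day 6. Dnmt3b fell by 7.88 ± 0.49 (edgeR adjusted p = 1.32e-07 and 0.00415), whereas its relative Dnmt3a fell by 2.08 ± 0.39 (0.00184 and 0.157). Of 23 DNA methylation and Polycomb genes 11 fell and 2 rose over plates, and 3 fell over experiments (medians -0.81 and -0.79). Suz12, a core subunit of the Polycomb complex that methylates histone H3, went from 181.04 to 29.8 CPM and Phc1, of the other Polycomb complex, from 271.4 to 40.1 CPM in main means (edgeR adjusted p = 7.26e-05 and 1.28e-06). Among the risers was Tet3, a methylcytosine oxidase (edgeR adjusted p = 0.0403), whose call was lost when any of 9 single plates was left out, with adjusted p up to 0.0861.

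**Figure D2:**
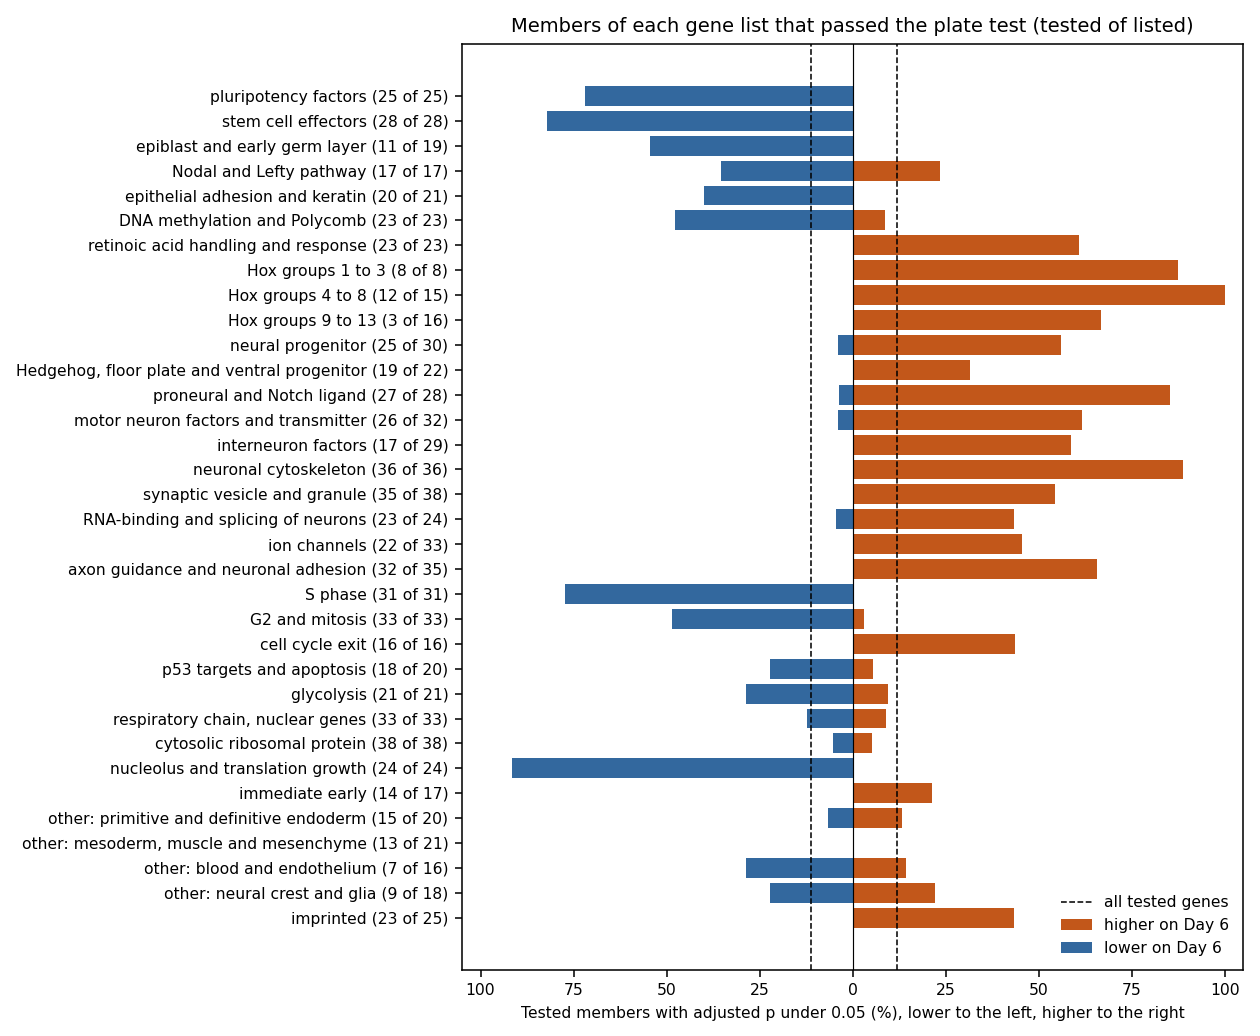
Share of the tested members of each gene list that rose or fell over plates (percent, edgeR adjusted p under 0.05); dashed lines give the shares over all tested genes, 12% for rises and 11.3% for falls. The stem cell and nucleolar lists hold falls and no rises, and the retinoic acid, Hox, cytoskeleton and axon lists hold rises and no falls.

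Many retinoic acid genes rose. Of 23 tested, 14 rose over plates and 8 over experiments with none falling, 9 did not pass over plates, and the medians were 5.05 and 4.15. Cyp26b1, the enzyme that degrades retinoic acid and is induced by it, had 0.0334, 0, 0 and 1.31 CPM on the Day 2 main plates and no read on the Day 2 pilot plates. On Day 6 it stood at 609, 699, 582 and 420.7 CPM on the main and 804 and 388.6 CPM on the pilot plates (edgeR adjusted p = 3.46e-06 over plates, 0.0371 over experiments), in the pilot at least 10379-fold higher. Crabp2, which carries retinoic acid to its receptors, rose by 5.14 ± 0.41 (log2, SE; adjusted p = 1.51e-06 and 0.000403), from 6.97 to 11.8 CPM to 230.6 to 353.8 CPM on the main plates. Meis1, a partner with which Hox proteins bind DNA, went from at most 0.0999 CPM to 62 to 170.2 CPM on the main plates (edgeR adjusted p = 2.73e-08 and 0.0552). Nr2f1 (COUP-TFI), an orphan nuclear receptor of the neural tube, had 0.059 to 0.434 CPM on Day 2 and 533.98, 535.4, 483.2 and 806 CPM on Day 6 (6.03e-08 and 0.0392).

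Neither the receptor gene Rara nor Stra8 gave a call. Rara, the retinoic acid receptor alpha, had 44.5 to 84.2 CPM on Day 2 and 56.1 to 130.4 CPM on Day 6 on the main plates and gave no call (edgeR adjusted p = 0.338). Stra8, known for its induction by retinoic acid in germ cells, had 40.5 to 65.7 CPM on Day 2, while its Day 6 main plates read 59.4, 0.0592, 351.9 and 0.477 CPM and its Day 6 pilot plates 284.03 and 182.3 CPM. No change was called for Stra8 (adjusted p = 0.299), and the share of cells with a read was 23.4% on Day 2 and 3.67% on Day 6 among main cells but 6.76% and 12.7% among pilot cells.

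Most Hox genes of paralog groups 1 to 8 rose, and few of the later groups passed the filter on low counts. Of the genes of paralog groups 1 to 3, all 8 were tested and 7 rose over plates and 5 over experiments. Of groups 4 to 8, 12 of 15 were tested and all 12 rose over plates, 7 of them over experiments. Those not tested, Hoxa6, Hoxc8 and Hoxd8, had a read in at most 0.565% of Day 6 main cells and 0% of pilot cells after thinning. Of groups 9 to 13 only 3 of 16 passed the filter, 2 of which rose over plates and none over experiments. The summed reads of the tested members gave medians of 7.62 and 9.43 for groups 1 to 3, and of 8.74 and 9.89 for groups 4 to 8. On Day 2 every listed Hox gene was at or near 0, the highest plate mean being that of Hoxb7 in the pilot with 16.1 CPM. Hox genes therefore passed the filter mostly through their Day 6 reads. The count of rises among tested members was in large part set by the filter.

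Shares of cells, with every cell thinned to 10000 reads, follow single genes. On Day 6 the main and pilot cells with a read were 48.6% and 40.9% for Hoxb2, 29.4% and 30.99% for Hoxa3, and 30.2% and 32.4% for Hoxd3. In group 5 they were 63.8% and 76.1% for Hoxa5, 59.3% and 60.6% for Hoxb5, and 19.2% and 45.1% for Hoxc5. Hoxb6 reached 61.6% and 52.1%. A read of Hoxb8 was seen in 53.95% of main and 26.8% of pilot cells, and of Hoxb9 in 27.1% and 4.23%. The interaction of day and experiment on levels called neither gene, so a difference between the experiments is not established for them. Hoxb8 read 188.2, 144.1, 95.8 and 81.1 CPM on the Day 6 main plates and 77.4 and 21.9 CPM in the pilot. It had 1 Day 2 plate of 6 above 0, at 0.334 CPM, and rose in both fits (edgeR adjusted p = 4.42e-06 and 0.00745). Hoxb9 read 126.8, 92.5, 174.99 and 64.5 CPM on the main plates and 19.9 and 7.45 CPM on the pilot plates of Day 6 (edgeR adjusted p = 1.27e-05 and 0.0883), the pilot lying below every main plate. Hoxc9, a thoracic gene that represses brachial identity, averaged 0.711 CPM on the Day 6 main plates and had no read in the pilot; its call (adjusted p = 0.0476) was lost when any of 8 single plates was left out.

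**Figure D3:**
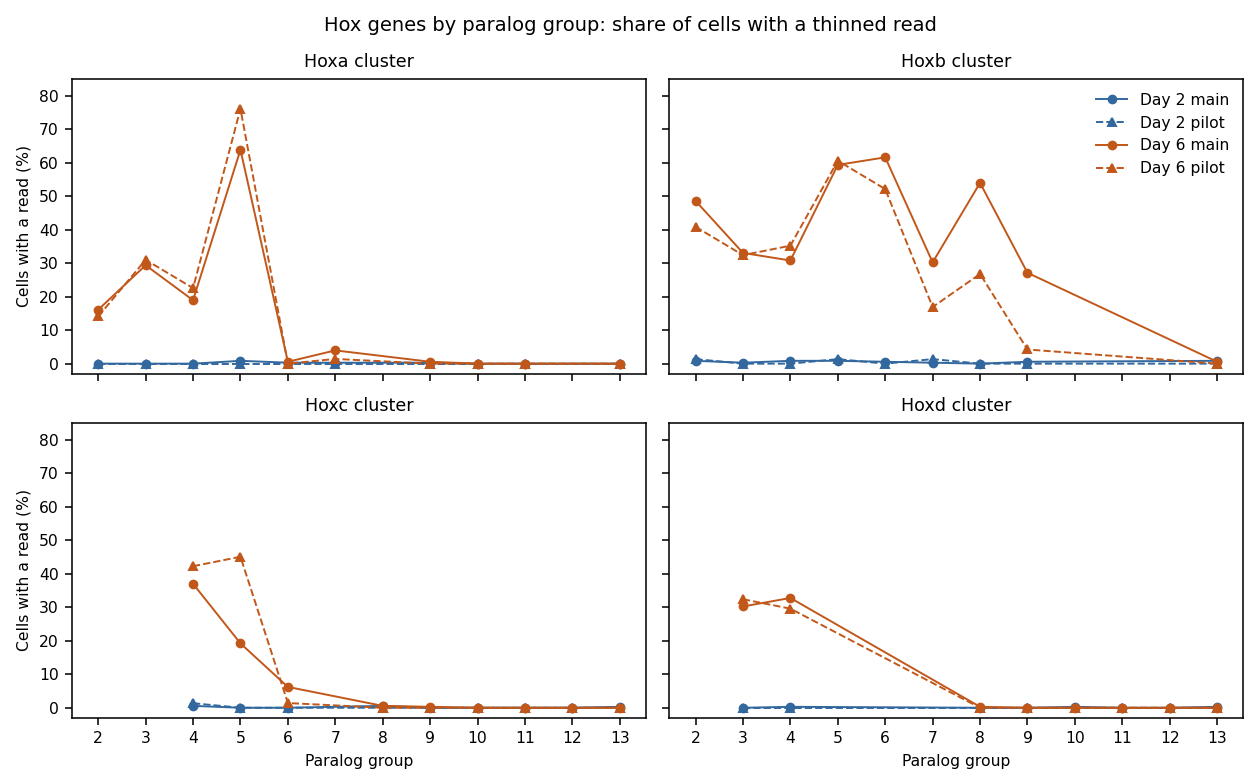
Share of Day 2 and Day 6 cells with a read of each listed Hox gene of paralog groups 2 to 13 after thinning to 10000 reads per cell (percent), by paralog group and cluster; circles and solid lines, main experiment; triangles and dashed lines, pilot; lines join the listed genes. On Day 6 the share is at most 0.565% in main cells for every listed gene of groups 9 to 13 other than Hoxb9, which reached 27.1%.

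The neural progenitor and ventral program rose in part. Of 25 progenitor genes tested of 30, 14 rose and 1 fell over plates and 3 rose over experiments (medians 2.51 and 5.29). Hes5, the Notch target that keeps progenitors undifferentiated, rose from 0.119 to 2.77 CPM to 352.4 to 546.2 CPM on the main plates, by 9.41 ± 0.84 (log2, SE; edgeR adjusted p = 4.42e-06 and 0.0159). Dach1, a transcriptional cofactor of neural progenitors, had no read on any Day 2 plate and 65.9 to 164.9 CPM on the Day 6 main and 62.9 and 234.4 CPM on the pilot plates, at least 3513-fold and 2688-fold higher (adjusted p = 3.81e-06 and 0.000403). Vim, the intermediate filament of radial cells, rose by 2.95 ± 0.32 from a level that was already 59.2 to 181.2 CPM on the Day 2 main plates (2.6e-05 and 0.0222). Pax6, the homeodomain factor of spinal progenitors, had 79.9, 33.3, 84.5 and 76.7 CPM on the Day 6 main plates against 2.17 to 14.9 CPM on Day 2 (edgeR adjusted p = 0.0105 and 0.161). Sox1, an early neural gene, passed over plates (0.0298) but not without any of 4 single main plates, with adjusted p up to 0.0602, and Nes, the progenitor filament, did not pass (0.0686).

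Ventral and proneural genes differed in how many passed. Of 19 tested Hedgehog and ventral genes 6 rose over plates and none over experiments (medians 0.81 and 1.94). Olig2, which marks the motor neuron progenitor domain, went from 0.476 to 3.37 CPM to 34.2 to 47.5 CPM on the main plates and rose by 4.37 ± 0.86 (edgeR adjusted p = 0.00263). Nkx6-1, of the ventral cord, had 7.15 to 31.2 CPM on the Day 6 main and 1.92 and 16.2 CPM on the pilot plates (edgeR adjusted p = 0.00324 over plates, 0.355 over experiments). Of 27 proneural and Notch ligand genes 23 rose and 1 fell over plates, and 1 rose over experiments (medians 4.35 and 7.76). Neurog2, the proneural factor of motor neuron precursors, had at most 0.25 CPM on the Day 2 plates and 148.75, 148.6, 71.9 and 115.2 CPM on the Day 6 main plates, with 16.7 and 383.5 CPM in the pilot (5.33e-06). Sox11, which drives early neuronal genes, rose by 4.43 ± 0.18 from 64.2 to 73.5 CPM to 1202 to 1508 CPM on the main plates (edgeR adjusted p = 4.7e-09 and 0.00292). Nhlh2, a helix-loop-helix factor of newborn neurons, reached 82.9 to 175.6 CPM from at most 0.234 CPM on the main plates (4.44e-07 and 0.0826).

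The promoters of Lhx3 and Gria2 are shown because they hold the RE1 element, the sequence to which the repressor REST binds to keep such genes off outside neurons. A promoter here is the RefSeq stretch from 250 bases before to 50 bases after the start (mm10), and the 21 bases searched on both strands, with up to 2 mismatches, were any base, TCAGCAC, C, 2 of any base, GGACAG, 2 of any base and CC; 40 of 32851 promoters (0.122%) held it. The pattern and the allowance were set, and these promoters chosen, after their matches were seen; a match is a stretch of letters and does not show binding. In Lhx3 the match is exact, lies 43 bases before the RefSeq start at chr2:26208272-26208292, and overlaps an exon and UTR of Lhx3 and an exon of Gm27196 on the other strand in GENCODE M21. In Gria2 it has 2 mismatches, lies before the start at chr3:80802989-80803009 on the opposite strand, and no annotated feature covers it. The element is in capitals within 30 bases (chr2:26208267-26208296) and 250 bases (chr3:80802836-80803085) of the minus strand, on which both genes lie, 5′ to 3′.
Lhx3: ctccTTCAGCACCGCGGACAGCGCCagccc
Gria2: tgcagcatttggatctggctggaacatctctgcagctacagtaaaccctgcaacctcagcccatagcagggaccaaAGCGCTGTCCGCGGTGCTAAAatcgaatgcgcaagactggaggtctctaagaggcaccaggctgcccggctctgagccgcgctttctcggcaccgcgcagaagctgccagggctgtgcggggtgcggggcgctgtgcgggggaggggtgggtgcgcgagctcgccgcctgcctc

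Motor neuron genes appeared between the days. Lhx3, the LIM-homeodomain factor that with Isl1 directs motor neuron identity, read 0.334, 0, 1.95 and 0.119 CPM on the Day 2 main plates and 83.8, 100.3, 57.4 and 151.5 CPM on those of Day 6; in the pilot both Day 2 plates were at 0 and Day 6 had 77.5 and 164.8 CPM. It rose by 8.35 ± 1.16 (log2, SE; edgeR adjusted p = 0.0002 over plates, 0.0926 over experiments); the sources used here do not state whether the counting used strand, so reads of Gm27196 could enter this value. Of 26 tested motor neuron genes of 32, 16 rose and 1 fell over plates, and 1 rose over experiments (medians 3.67 and 6.69). That gene was Slc18a3, the vesicular acetylcholine transporter, with 48.6 to 92.3 CPM on the Day 6 main and 44.8 and 106.9 CPM on the pilot plates against at most 0.472 CPM on Day 2 (edgeR adjusted p = 1.94e-05 and 0.0371). Isl1 had 239.2, 181.3, 76.4 and 237.5 CPM on the Day 6 main plates, but in the pilot the days overlapped, at 0 and 34 CPM on Day 2 and 25.8 and 98.6 CPM on Day 6 (adjusted p = 0.0143 and 0.41).

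Other members were lower or came from other programs. Mnx1, the factor that seals motor neuron fate, had 5.22 to 9.48 CPM on the Day 6 main plates and 10.9 and 17.1 CPM in the pilot (edgeR adjusted p = 0.00196 and 0.105), and Chat, the enzyme that makes acetylcholine, had 3.5 to 30.5 CPM (0.000904 and 0.206). Onecut2, expressed in newborn motor neurons, rose to 87.1 ± 14.9 CPM (SD, n = 4 main plates) from 0.804 ± 0.596 CPM (edgeR adjusted p = 1.52e-05). Chrna3, a subunit of the nicotinic receptor, had no read on Day 2 and 26.5 to 88 CPM on the Day 6 main plates, at least 1435-fold higher (1.25e-05 and 0.092). Calca, a neuropeptide gene that was expressed on Day 2, fell by 2.87 ± 0.48 (edgeR adjusted p = 0.000868). Of 17 tested interneuron genes 10 rose over plates and 1 over experiments (medians 4.98 and 4.35), Lhx1, which marks several interneuron classes and lateral motor neurons, at 63.5 ± 23.1 CPM on the Day 6 main plates and 1 read in all on those of Day 2 (edgeR adjusted p = 7.54e-07 and 0.0197). Gata3 and Tal1, of the V2b interneurons, had means of 52.2 and 41.1 CPM on the Day 6 main plates but 3.22 and 1.06 CPM in the pilot (0.00263 and 0.0107 over plates, 0.367 and 0.385 over experiments). Th, which encodes tyrosine hydroxylase, the enzyme that starts catecholamine synthesis, read 138.6 to 229.7 CPM on the Day 6 main and 38.6 and 129.4 CPM on the pilot plates after at most 0.238 CPM on Day 2 (edgeR adjusted p = 2.39e-07 and 0.00745). Slc10a4, a vesicular transporter of cholinergic neurons, reached 93.6 to 236.6 CPM on the main plates (9.79e-07 and 0.0509).

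The neuronal cytoskeleton had the most calls of any list. All but 4 of its 36 members rose over plates, a count of 32, and 9 rose over experiments with none falling (medians 3.57 and 4.25). Tubb3, the tubulin of neurons, read 11.1, 25, 8.19 and 8.69 CPM on the Day 2 main plates and 289.7, 349.3, 183.6 and 214.7 CPM on those of Day 6, and 8.41 and 0.484 CPM against 429.3 and 209.2 CPM on the pilot plates. It rose by 4.89 ± 0.64 (log2, SE; edgeR adjusted p = 0.000134 over plates, 0.176 over experiments). Map1b, a microtubule-binding protein of growing axons, rose by 3.52 ± 0.29 (2.27e-06 and 0.00552), and Tubb2b, a tubulin of migrating neurons, by 3.41 ± 0.31 (4.54e-06 and 0.0181). Dcx, doublecortin, went from 0.179 to 102.7 CPM in main means (edgeR adjusted p = 3.7e-06 and 0.0882).

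Stmn2 and other genes rose from a base that was not near 0. Stmn2, a tubulin regulator of growth cones, read 114.7, 239.6, 145.3 and 188.2 CPM on the Day 2 main plates and 772, 869, 679 and 1052 CPM on those of Day 6, and 143.97 and 23.9 CPM against 1135 and 429.3 CPM on the pilot plates. It rose by 2.60 ± 0.40 (edgeR adjusted p = 0.000456 and 0.00745). The share of cells with a Stmn2 read was 45.1% and then 44.6% among main cells, and 10.8% and then 33.8% among pilot cells (exact permutation p = 0.191, two-sided), while the mean number of thinned reads in the cells that had one went from 4.42 to 19.4 (main) and from 8.25 to 19.4 (pilot). Whether the share passed depended on the setting: the difference of 7.29 percentage points became 12.6 with 5000 reads per cell (exact permutation p = 0.019) and 18.1 with at least 3 reads required (0.00476), and it passed without Day 2 main plate 1 (0.0476). On the main plates alone it was -0.30, and with all reads -1.23. Mapt, the tau gene, had 13.6 to 22 CPM on Day 2 main plates and 162.3 to 261.9 CPM on Day 6 (edgeR adjusted p = 0.000115).

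Synaptic, splicing and guidance genes followed. Of 35 synaptic genes tested 19 rose over plates and 3 over experiments (medians 4.08 and 4.31). Scg3, a granule protein, read 110.8 CPM on 1 Day 6 main plate and 33.1 to 42.9 CPM on the others (edgeR adjusted p = 9.31e-06 and 0.0509). Snap25, of the synaptic fusion machinery, gave no call, with 11.1 to 25.8 CPM on the Day 6 main plates but 2.34 and 4.01 CPM on Day 6 against 19.9 and 0 CPM on Day 2 in the pilot (edgeR adjusted p = 0.384). Of 23 RNA-binding and splicing genes 10 rose and 1 fell over plates (medians 3.10 and 3.21). The faller was Ptbp1, the splicing repressor that neurons switch off, down by 1.49 ± 0.20 (edgeR adjusted p = 0.000185 and 0.0906), and Elavl4 and Elavl2, neuronal Hu proteins, rose to means of 279.6 and 181.8 CPM on the Day 6 main plates from 2.68 and 14 CPM (0.000133 and 0.000273 over plates). Of 22 tested ion channel genes 10 rose over plates and none over experiments (medians 4.21 and 5.63), among them Kcnh2, a potassium channel, from 1.31 to 34.4 CPM in main means (edgeR adjusted p = 7.94e-05). Gria2, the AMPA receptor subunit whose promoter is shown above, had no read on Day 2 and 6.91, 16.9, 10.4 and 6.88 CPM on the Day 6 main plates, with 7.43 and 0 CPM in the pilot (edgeR adjusted p = 0.00624). Of 32 tested axon guidance genes 21 rose over plates and 2 over experiments (medians 4.73 and 5.35); Unc5a, a netrin receptor, went from at most 1 CPM to 59.4 to 94.9 CPM on the main plates (0.000133 and 0.0402), and Cntn2, the adhesion molecule TAG-1 of outgrowing motor axons, to 251.8 to 487.5 CPM and, in the pilot, to 597 and 628 CPM (edgeR adjusted p = 5.93e-05 and 0.0893).

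Many genes of proliferation fell over plates, and none fell over experiments. Of 31 S phase genes 24 fell and none rose over plates, and none passed over experiments (medians -1.42 and -1.13). Mcm3 and Mcm2, subunits of the replicative helicase, fell by 2.13 ± 0.27 and 1.68 ± 0.23 (log2, SE; edgeR adjusted p = 9.18e-05 and 0.000176 over plates, 0.171 and 0.147 over experiments). Of 33 genes of G2 and mitosis 16 fell and 1 rose over plates, and over experiments none fell and 1 rose (medians -0.85 and -1.28). Top2a, the topoisomerase of dividing cells, read 1117, 1210, 1232 and 1186 CPM on the Day 2 main plates and 652, 172.1, 577 and 590 CPM on those of Day 6, and 2232 and 2428 CPM against 780 and 996 CPM on the pilot plates. It fell by 1.30 ± 0.25 (edgeR adjusted p = 0.00234 and 0.448), and Cdk1, the kinase of mitotic entry, by 1.65 ± 0.28 (0.00104 and 0.145). The gene that rose was Hmgb3, a chromatin protein, by 3.43 ± 0.71 (edgeR adjusted p = 0.0038 and 0.0197), with 22.3% of main cells on Day 2 and 69.2% on Day 6 having a read.

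Mki67, a marker of cycling cells, was among the 16 of 33 genes of G2 and mitosis that did not pass. Its main plates lay at 24.7 to 56.9 CPM on Day 2 and 38.2 to 61 CPM on Day 6, and 1 pilot plate of Day 6 stood at 782 CPM beside 64.2 CPM on the other (edgeR adjusted p = 0.458). Of 16 genes of cell cycle exit 7 rose over plates and none over experiments (medians 1.78 and 1.77). Cdkn1a, the inhibitor p21, went from 68.4 ± 15.1 to 280.9 ± 58.4 CPM on the main plates (SD, n = 4; edgeR adjusted p = 4.51e-05 and 0.215), and Cdkn2d, the inhibitor p19, rose by 2.30 ± 0.31 (0.000162 and 0.107). Of 18 tested p53 target and apoptosis genes 1 rose and 4 fell over plates (medians -0.43 and -0.50); Bax, the pore-forming death effector, fell by 1.18 ± 0.24 (edgeR adjusted p = 0.00309).

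Growth genes fell, and few ribosomal protein genes passed. Of 24 nucleolar and translation genes 22 fell over plates and 3 over experiments, with none rising (medians -1.44 and -1.73). Ncl, nucleolin, read 2127, 1438, 2848 and 2949 CPM on the Day 2 main plates and 440.01, 559.6, 548.6 and 532.01 CPM on those of Day 6 and fell by 2.03 ± 0.20 (log2, SE; edgeR adjusted p = 9.31e-06 and 0.0181). Odc1, the first enzyme of polyamine synthesis and a Myc target, fell by 2.31 ± 0.17 (9.23e-07 and 0.0461). Of 38 cytosolic ribosomal protein genes 2 rose, 2 fell and 34 did not pass, with medians of 0.05 and 0.24 near those of all genes. Among those that passed, Rps19 changed by 0.48, Rps2 by -0.50 and Rpl6 by -0.36 (log2; edgeR adjusted p = 0.0141, 0.0314 and 0.0452), and each of these lost its call when any of 3, 5 and 8 single plates was left out. Of 21 glycolysis genes 2 rose and 6 fell over plates (medians 0.07 and -0.44); Ldhb, the lactate dehydrogenase subunit, fell by 2.55 ± 0.32 (edgeR adjusted p = 9.18e-05 and 0.0272) and Tpi1, triosephosphate isomerase, rose by 0.80 ± 0.14 (0.00105 and 0.322). Of 33 nuclear genes of the respiratory chain 3 rose and 4 fell over plates (medians 0.14 and 0.13).

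Further genes beyond the lists stood among the largest changes. Tmem132e, which encodes a membrane protein, went from 2 reads in all on the Day 2 plates to 70 to 108.03 CPM on the Day 6 main and 102.8 and 139.98 CPM on the pilot plates (edgeR adjusted p = 2.71e-08 and 0.0374). Cbr3, a carbonyl reductase, had 214.2 ± 29.8 CPM (SD, n = 4) on the Day 2 main plates and no read on any Day 6 plate, at least 4079-fold (main) and 1286-fold (pilot) lower (edgeR adjusted p = 3.16e-07 and 0.136). Fam25c likewise had 64.3 CPM on Day 2 main plates and no read on Day 6, at least 1215-fold lower (5.26e-06 and 0.0278). Tdh, threonine dehydrogenase, on which the nucleotide synthesis of mouse stem cells depends, stood at 88.7 to 166.6 CPM on the Day 2 main plates and 0 to 0.901 CPM on Day 6 (edgeR adjusted p = 3.94e-05 and 0.105). Of 23 tested imprinted genes 10 rose over plates and 1 over experiments (medians 1.58 and 2.59); Dlk1, a Notch-like ligand, read 446.4, 698, 432.7 and 332.7 CPM on the Day 6 main plates after 0.715 to 1.84 CPM on Day 2, and 335.9 and 31.2 CPM in the pilot (edgeR adjusted p = 7.26e-05 and 0.209). Of 14 tested immediate early genes 3 rose over plates (medians 1.19 and 0.12), and Jun, a subunit of AP-1, rose by 3.47 ± 0.90 (edgeR adjusted p = 0.0137 and 0.0274).

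Most markers of the stem cell state were seen in few cells on Day 6, and those of neurons and spinal position in part of them. Each of 854 cells with enough reads was thinned to 10000 reads (6 main cells and 1 pilot cell were too shallow), and the mean share per plate was compared with an exact permutation test of the plate labels within experiments, two-sided, with 420 arrangements and a smallest possible p of 0.00476. Of 35 markers, 31 differed at p under 0.05, 20 upwards and 11 downwards, and 28 of them gave that smallest p. Among the 20, the Snap25 share went from 1.13% to 7.06% in main cells but from 1.35% to 0% in pilot cells. The markers were chosen with earlier results of these data known, and the test was not run on other genes. The count thus has no share over all genes to be read against. For levels, the plates of the days did not overlap within both experiments for 11% of tested genes upwards and 7.74% downwards. Dppa5a had a read in 99.2% of main and 81.1% of pilot cells on Day 2 (95% Wilson intervals 97.6% to 99.7% and 70.7% to 88.4%), and in 1.69% and 5.63% on Day 6. Hoxb5 went from 0.845% and 1.35% to 59.3% and 60.6%. Celf3 was seen in no main and no pilot cell on Day 2, which allows shares of up to 0.845% and 4.05% (3 cells of the total; the Wilson intervals end at 1.07% and 4.935%), and in 22.3% and 21.1% on Day 6. The intervals and limits cover counting error only, since reads without molecular identifiers are not independent molecules.

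**Figure D4:**
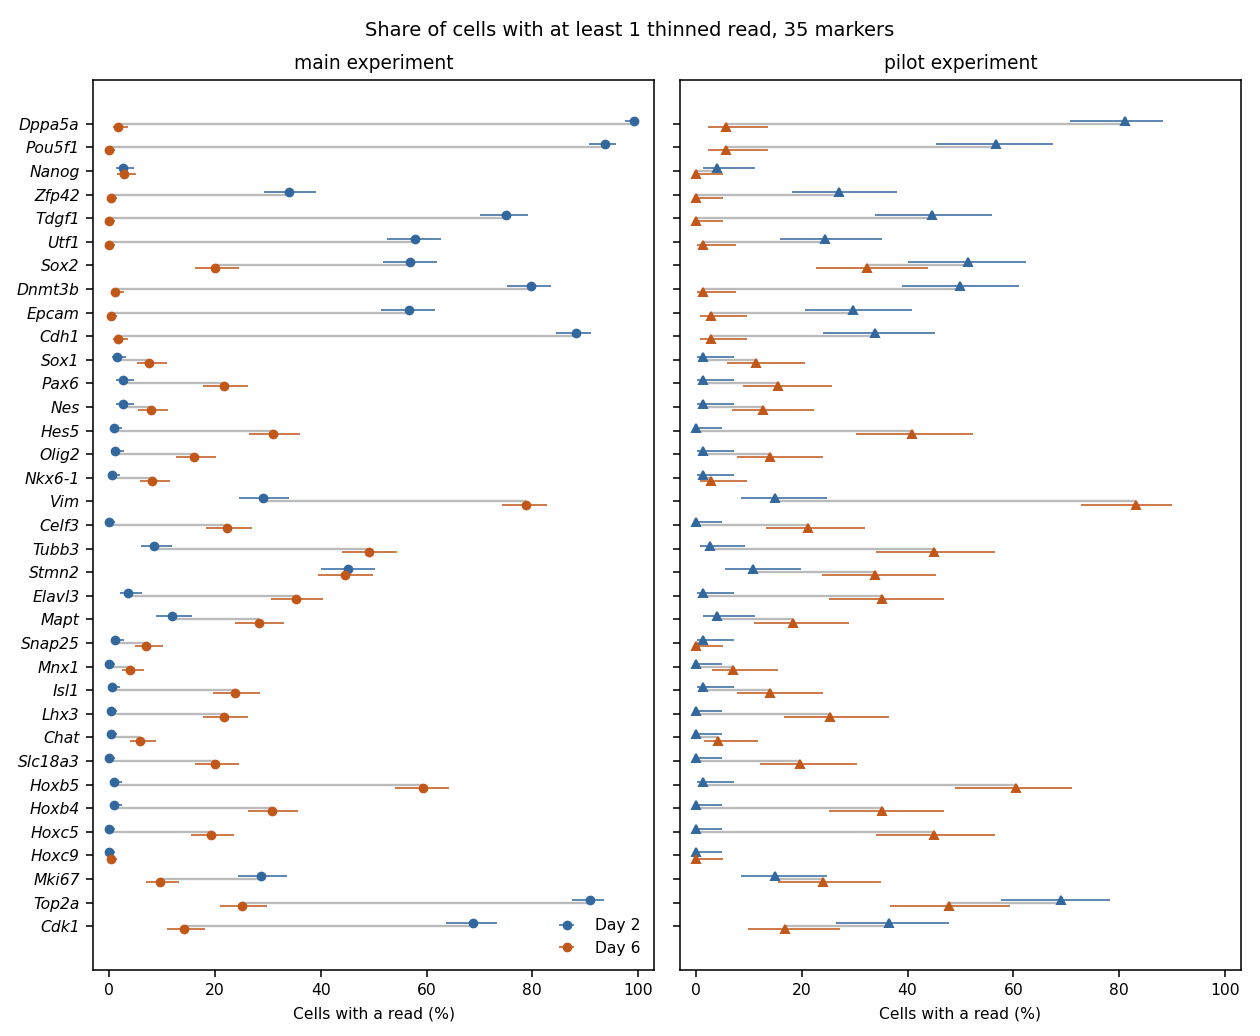
Share of cells with at least 1 read of each of 35 markers on Day 2 and Day 6 after thinning to 10000 reads per cell (percent; panels, main and pilot experiment; bars, 95% Wilson intervals). Dppa5a lies at 99.2% of main cells on Day 2 and 1.69% on Day 6, whereas Sox2 keeps 20.1% on Day 6 and Nanog is low on both days; Vim and Hoxb5 lie to the right on Day 6 (78.8% and 59.3%).

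Among stem cell markers the Day 2 shares varied, in main and pilot cells, from 93.8% and 56.8% for Pou5f1 to 34.1% and 27% for Zfp42 and 2.54% and 4.05% for Nanog, and all but Nanog (exact permutation p = 0.386) had lower shares on Day 6. The Sox2 share went from 56.9% and 51.4% to 20.1% and 32.4%. Among neuronal markers on Day 6, Tubb3 was seen in 49.2% and 45.1% of cells, Elavl3 in 35.3% and 35.2%, Lhx3 in 21.8% and 25.4%, Slc18a3 in 20.1% and 19.7%, and Mnx1 in 3.95% and 7.04%. Of the cycle markers, the Top2a share went from 90.99% and 68.9% to 25.1% and 47.9%, whereas Mki67 went from 28.7% to 9.6% (main) and from 14.9% to 23.9% (pilot) (exact permutation p = 0.119). The other marker without a call, Hoxc9, was seen in 0.282% of main cells on Day 6 (p = 1, the largest an exact permutation test can give). Over all genes, 5 had a read in at least 50% of cells on Day 6 and at most 5% on Day 2 in both experiments, namely Cyp26b1, Hoxa5, Hoxb5, Hoxb6 and Nr2f1, and 1, Dnmt3b, had the opposite pattern. These 6 rest on a rule of size applied to the data, and their shares are a description.

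Counting markers per cell described how the states met. At least 2 of 8 stem cell markers (Dppa5a, Pou5f1, Zfp42, Tdgf1, Utf1, Dnmt3b, Epcam and Cdh1) were seen in 99.4% of main and 85.1% of pilot cells on Day 2, and in 1 main and 4 pilot cells on Day 6. At least 2 of 10 neuronal markers (Celf3, Tubb3, Elavl3, Mapt, Isl1, Lhx3, Slc18a3, Chat, Mnx1 and Snap25) were seen in 8 main and no pilot cells on Day 2, and in 54.2% and 43.7% on Day 6. No Day 6 cell reached 2 in both sets, but only the 1 main and 4 pilot cells above could have done so. Nanog and Sox2 were left out of the stem cell set, Stmn2 out of the neuronal set and Vim out of the progenitor set. Of these, Sox2 had a read in 20.1% of main and 32.4% of pilot cells on Day 6. Stmn2 had one in 45.1% and Vim in 29% of main cells on Day 2, so the counts depend on the markers chosen. At least 2 of 6 progenitor markers (Sox1, Pax6, Nes, Hes5, Olig2 and Nkx6-1) were seen in 99 main (27.97%) and 20 pilot cells (28.2%) on Day 6, of which 25 and 5 also had 2 neuronal markers. At least 2 of the 3 cycle markers were seen in 71.55% of main and 36.5% of pilot cells on Day 2, and in 52 (14.7%) and 19 (26.8%) on Day 6, of which 27 and 10 had 2 progenitor markers and 7 and 6 had 2 neuronal markers. On Day 6, 88 main (24.9%) and 25 pilot cells (35.2%) reached 2 in neither the progenitor nor the neuronal set; at 10000 reads a marker can be missed, and such cells are not thereby another type. Doublets were not called, as each well was sorted to hold 1 cell.

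The spread between cells differed from list to list. Stem cell effectors took a median of 0.85% of a main cell's reads on Day 2 (10th to 90th percentile 0.494% to 1.53%) and 0.03% on Day 6 (0% to 0.127%). The neuronal cytoskeleton took 0.11% on Day 2 (0.04% to 0.24%) and 0.745% on Day 6 (0.19% to 3.44%), a wider range than on Day 2. S phase genes took 0.49% on Day 2 and 0.07% on Day 6, with a 90th percentile of 0.49% on Day 6. Retinoic acid genes took 0.01% and then 0.44%, and nucleolar genes 1.52% and then 0.51%. Ribosomal protein genes took 16.1% and 15.1% of main cells' reads, and 14.8% and 17.7% of those of pilot cells.

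**Figure D5:**
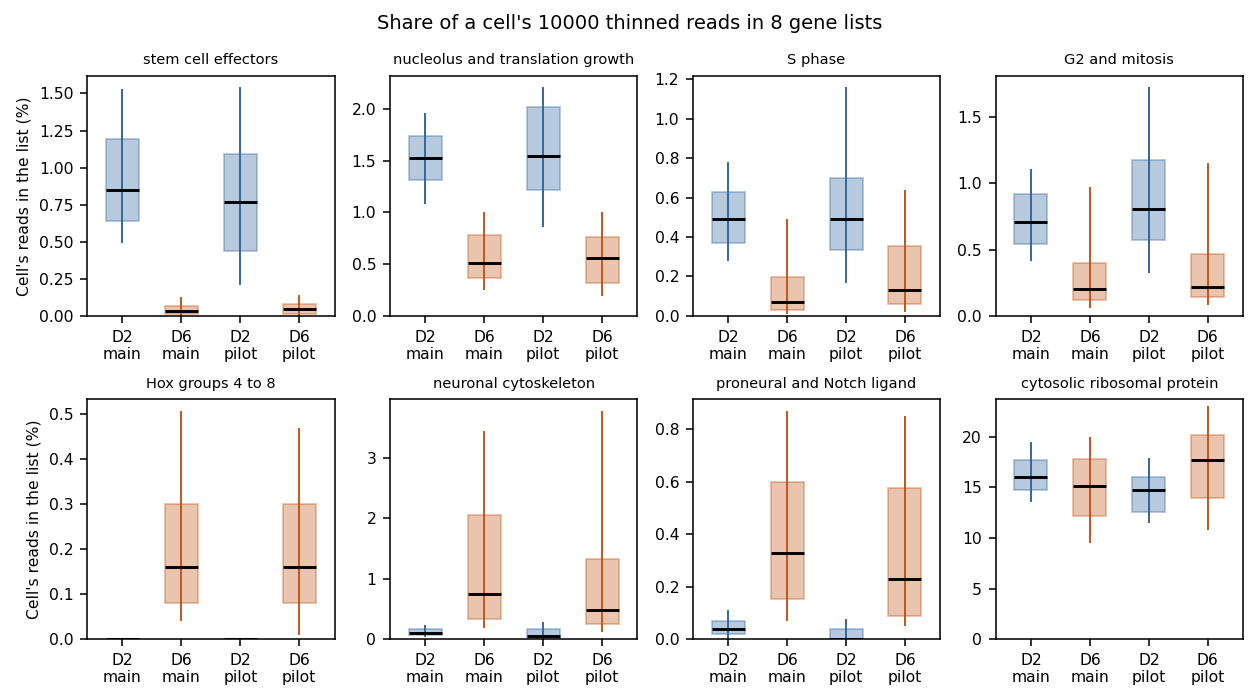
Percent of a cell's 10000 thinned reads that fall on each of 8 gene lists, by day and experiment (line in the box, median; box, 25th to 75th percentile; thin line, 10th to 90th percentile). For the neuronal cytoskeleton in main cells the 10th to 90th percentile ran from 0.04% to 0.24% on Day 2 and from 0.19% to 3.44% on Day 6.

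Marker genes of other cell types passed at shares on both sides of those over all tested genes, and none passed over experiments. Rises over plates made up 13.3% of tested endoderm, 0% of mesoderm, 14.3% of blood and endothelium, and 22.2% of neural crest and glia genes. Falls made up 6.67%, 0%, 28.6% and 22.2% in the same order. Over all tested genes the shares were 12% and 11.3%. Of 15 tested endoderm genes of 20, 2 rose and 1 fell over plates. The summed level of the 20 was 422.7 to 642 CPM on the Day 2 main plates and 155.5 to 481.1 CPM on Day 6. On Day 6 Sox17, Afp and Hnf4a had no read in either experiment. All other listed members, Gata4, Gata6 and Foxa2 among them, had reads on the Day 6 main plates, and 8 of the 20 had none in the pilot. Apoe, an apolipoprotein that stem cells also express, was the gene that fell, by 2.55 ± 0.26 (edgeR adjusted p = 1.5e-05 and 0.352), and Lama1, a basement membrane laminin, rose over plates from 0.367 to 10.6 CPM to 29.4 to 60.4 CPM on the main plates (0.0129 and 0.353). None of 13 tested mesoderm genes of 21 passed over plates, and their sum was 52.1 to 98.2 CPM on the Day 2 and 40.95 to 123.6 CPM on the Day 6 main plates. Of 7 tested blood and endothelium genes 1 rose and 2 fell; the sum was 34.5 to 54.5 CPM on the Day 2 and 4.43 to 122.5 CPM on the Day 6 main plates, and Pecam1, which stem cells also express, was among the fallers, with no read on the Day 6 main plates (edgeR adjusted p = 4.42e-06 and 0.156), while the riser, Tal1, is also an interneuron gene. Of 9 tested neural crest and glia genes 2 rose and 2 fell, the risers Ednrb and Mbp at 46.5 and 35.4 CPM in Day 6 main means (edgeR adjusted p = 3.54e-05 and 0.0015). The summed level of the 18 listed neural crest and glia genes was higher on every Day 6 plate, at 18.5 to 42.3 CPM and then 85.5 to 152.1 CPM on the main and 29.4 to 61.4 CPM and then 105.6 to 144.5 CPM on the pilot plates; Gfap, Aqp4, S100b, Cspg4 and Erbb3 had no read on Day 6 in either experiment. The part of other cell types in the results was not tested.

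The experiments gave different sizes of change for some genes. The interaction of day and experiment passed for 3.51% of 14689 genes (edgeR adjusted p under 0.05), with the pilot change the higher for all but 28 of them; with every cell thinned to 10000 reads before summing, 27 genes passed. The number of genes per cell also moved in opposite directions between days in the main and pilot experiments, and its part in this count was not tested.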

How the data were processed

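Single cells were sorted into plates and sequenced with a modified CEL-seq protocol, per the labels' protocols. The deposited values are raw read counts per gene and cell without molecular identifiers; the submitters' processing notes name TopHat2 2.1.1, HTSeq 0.6.1 and mm10. Of the 24092 entries of a table, 23968 are genes, 92 spike-ins, 5 HTSeq summary lines and 27 other names that were left out; summary lines took 26.9% to 47.1% of reads on the plates compared. A table of 40 columns that match no sample was not used. Kept cells (361 of 384 Day 2 main, 75 of 80 Day 2 pilot, 354 of 384 Day 6 main, 71 of 80 Day 6 pilot) were summed per plate, and no cells had identical counts.

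Plate sums were tested with edgeR 4.0.16 (R 4.3.3; filterByExpr, TMM, quasi-likelihood, prior count 0.125, experiment as block, two-sided, Benjamini-Hochberg threshold 0.05). The fit with the experiment as the replicate used 12 sums of the main and pilot experiments over Days 2 to 6 and the eGFP++ group. Depth is given per plate, and its precision enters through the spread between plates. Alternatives used DESeq2 1.42.0, limma 3.58.1, other filters, scalings and cell sets, and each plate left out in turn. Shares of cells used 10000 thinned reads per cell (355, 74, 354 and 71 cells in the order above; Python 3.11.15, numpy 2.4.6, scipy 1.17.1); p-values of shares are printed without adjustment, because the markers were chosen with results known. A bound against 0 uses 3 reads per experiment sum. A single captured transcript can give more reads than that, so the bound is not a lower limit for transcripts. On simulated counts for 13840 genes, the plate test called 3, 18, 34 and 44 of 50 genes changed 2, 4, 16 and 64-fold, and 4 of 13640 unchanged ones. Far fewer genes were changed there than were called in the data, so these rates do not carry over to it.

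The members, gene lists and markers were chosen with earlier results of these data known. Named genes were the 12 largest rises and 12 largest falls with at least 50 CPM and no overlap of plates in both experiments, the markers, and from each list at most 3 members of lowest adjusted p, with at most 2 more that moved the other way or did not pass; not all are printed, and some are not reported here. Hox genes other than those, and the reporter row in the closing section, were named after their values were seen. Day 2 and Day 6 plates are linked only through the experiment they belong to. The differences of main from pilot on Day 2 correlated at 0.0808 with those on Day 6 over genes. Of 188 named genes 145 had a promoter in the RefSeq table, too few for a count of motifs over them.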

Additional observations from a re-analysis of the deposited data

Results flagged for a closer look

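For the genes named, with a mean of at least 10 CPM over the 4 main plates of a day, 14 sets of 4 (7.41% of those looked at) held 1 plate that stood apart from the other 3 (gap over range above the 95% critical value of 0.829); about 1 set in 20 does so by chance. On Day 6, main plate 3 stood high for Cdh1 (77.88 CPM, the others 4.03 to 12.9 CPM), Krt18 (297.5 CPM, the others 3.09 to 17.4 CPM), Stra8 (351.95 CPM, the others 0.0592 to 59.4 CPM) and Igf2 (144.5 CPM, the others 17.65 to 34.4 CPM). In that plate 1 cell held 54% of the thinned Krt18 reads, and 2 of its 90 cells had at least 3. Krt18 did not pass over all plates (edgeR adjusted p = 0.873), and without main plate 3 of Day 6 its fitted change was -1.99 (log2; edgeR adjusted p = 0.0691).

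On Day 6, main plate 2 stood low for Pax6 (33.28 CPM, the others 76.7 to 84.55 CPM), Top2a (172.1 CPM, the others 576.8 to 652 CPM) and Cdkn2d (65.5 CPM, the others 90.02 to 91.6 CPM), and high for Scg3 (110.8 CPM, the others 33.1 to 42.9 CPM). Main plate 4 of Day 6 stood high for Nr2f1 (805.6 CPM, the others 483.2 to 535.4 CPM) and Kcnd3 (42.45 CPM, the others 4.04 to 7.33 CPM), and main plate 1 for Hoxb6 (409.7 CPM, the others 238.7 to 265.4 CPM). On Day 2, main plate 3 stood high for Vim (181.2 CPM, the others 59.2 to 76.7 CPM) and Id2 (35.2 CPM, the others 14.8 to 18.02 CPM), and main plate 4 low for Sox11 (64.19 CPM, the others 72.4 to 73.5 CPM).

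The change from Day 2 to Day 6 differed between the main and pilot experiments for 9 of the genes named (edgeR interaction, Benjamini-Hochberg adjusted over all tested genes): Pou5f1 (adjusted p = 0.01435), Pax6 (0.00779), Hes5 (0.0393), Hoxb4 (0.02265), Nr2f1 (0.03555), Tet3 (0.0232), Cntn2 (0.00397), Lama1 (0.0357) and Egfp (0.000454). In each the pilot difference was the higher. For Pou5f1 this was a smaller fall, with 19.75 and 0.202 CPM left on the Day 6 pilot plates. For the other 8 it was a higher ratio of Day 6 to Day 2, from Day 2 pilot plates at or near 0. Such a ratio does not mean a higher Day 6 level in the pilot. Nr2f1, Tet3, Lama1 and Egfp had no read on the Day 2 pilot plates at all, so the size of their difference is not given.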

How the results depend on the processing

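The experiment as the replicate gave calls for 0.833% of genes, the pilot plates alone for 0.267% (30 genes, 24 of them higher) and limma voom for 39.8% (5513 genes), against 23.3% over plates. All 30 pilot calls were also calls over plates. Without the replicate block, 2314 genes passed, 2175 of them shared, and 30 of 35 markers differed in share. The interaction passed for 12.6% of genes with DESeq2 and 0.281% with cells thinned before summing, against 3.51%. Other settings gave 2800 to 4545 changed genes, and leaving out each plate in turn 18% to 23.7% of tested genes (2448 to 3455) and 30 to 31 markers. With at least 3 thinned reads required 28 markers passed, Nes, Snap25, Mnx1 and Chat no longer and Stmn2 newly, and with 5000 reads per cell 32. Thinning moved the share of rises among calls to 61.8%.

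Some directions reversed. With cells that have a read counted in place of reads, Mki67 was at -0.77 (log2; edgeR adjusted p = 0.000607), Krt18 at -1.55, Stra8 at -0.64, Bax at 0.11, Ndufa4, Rps2 and Rpl6 at 0.38, Ncl at 0.17 and Hspe1 at 0.30. The last 6 did not pass (edgeR adjusted p 0.132 to 0.661). Rps2 and Rpl6 had a read in at least 99.2% of cells of both days, so their number of cells could hardly fall and their sign on this measure is void. Over experiments Snap25 was at -0.43 and Krt18 at -0.18, and on the pilot plates alone they were at -1.63 and -1.46. With limma voom Krt18 was at -0.83 and Stra8 at -0.29, with thinned cells Krt18 was at -1.12, and on main plates alone Mki67 was at -0.066. Leaving out single plates moved Mki67 between -0.29 (without Day 6 pilot plate 2) and 0.69, and Krt18 between -1.99 and 0.75. The difference in share was 0.25 percentage points for Nanog and -0.30 for Stmn2 on main plates alone, and -1.23 for Stmn2 with all reads. The cause of the other reversals was not tested. Calls were lost on leaving out any of 4 plates for Sox1 (adjusted p up to 0.0602), 8 for Hoxc9 (0.0990), 9 for Tet3 (0.0861) and Eno2 (0.127), 3 for Rps19 (0.0663), 5 for Rps2 (0.0746), 8 for Rpl6 (0.0925) and 10 for Btg2 (0.201). Calls rest on plates of unknown culture and on reads without molecular identifiers. In simulation 3 of 50 genes changed 2-fold were called. That simulation left 13640 of 13840 genes unchanged and gave each gene the trended spread between plates. In the data 23.3% of genes were called, so the adjusted threshold differs and the simulated rate does not carry over.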

Other observations

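The tables hold a row named Egfp, and its values are given here because they were seen in the data; the labels do not say which promoter drives the reporter. It stood at 11.9, 11.1, 14.3 and 20.1 CPM on the Day 2 main plates and at 2493, 5138, 2230 and 4138 CPM on those of Day 6, with no read on the Day 2 pilot plates and 3496 and 2033 CPM on Day 6. Egfp rose over plates (edgeR adjusted p = 9.18e-05) and did not pass over experiments (0.169). A read of Egfp was seen in 9.58% of main cells on Day 2 and 56.2% on Day 6 after thinning, and in 0% and 53.5% of pilot cells; with all reads the Day 6 shares were 74.9% and 92.96%.

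Genes detected broadly on both days fell more often than they rose. Among genes with a read in at least 50% of thinned cells of both days in both experiments, 72 changed over plates (30.1%), 59 of them downwards (24.7%) and 13 upwards (5.44%). Over all tested genes 23.3% changed, 11.3% downwards and 12% upwards. The rule needs detection on both days, so genes lost from or gained by most cells are outside it, and no test was made of this split.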
